A study of Mus musculus with 7 samples.

Results

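In the ovaries of PAMH F3 mice, Tnfrsf12a, the gene of the TWEAK receptor, averaged 15.3 ± 2.82 CPM (SD, n = 4), and control (CNTR) ovaries averaged 32.2 ± 5.83 CPM (SD, n = 3). CPM is the read count of a gene scaled to library size. The other 9 genes described here, which belong to TWEAK and TNF signalling to NF-kB, overlapped between the groups. Their fitted differences were at most 0.20 in size on the log2 scale. The set holds 10 genes of the 55487 gene identifiers in the deposited count tables. It consists of the ligand gene Tnfsf12, the receptor genes Tnfrsf12a and Tnfrsf1a, the adaptor gene Traf2, the Rel family genes Rela, Relb, Nfkb1 and Nfkb2, and the inhibitor genes Nfkbia and Tnfaip3. The set was chosen by the measured level of Tnfrsf12a in this same comparison of CNTR with PAMH F3, which was already known, and the other genes were added for their place in the pathway. The differences of the 10 genes between the groups are therefore given as a description, with no p value.

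TWEAK, the protein encoded by Tnfsf12, is a cytokine of the tumour necrosis factor (TNF) superfamily, and its receptor, encoded by Tnfrsf12a, is also called Fn14, for fibroblast growth factor-inducible. The receptor has a short cytoplasmic tail that recruits TRAF adaptor proteins, and these lead to the release of NF-kB dimers, both by the canonical route through IkB kinase and RelA and by the non-canonical route through the processing of p100 to p52 and RelB. Fn14 is known to be low in most resting tissues and to be induced by growth factors and injury. In the ovary, NF-kB signalling is known to take part in the life of follicles, in ovulation and in the regression of corpora lutea.

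All 7 mice were C57BL/6J females, and ovaries were taken at diestrus on postnatal day 60. The 3 CNTR mice were daughters of dams that received PBS injections between E16.5 and E18.5 of gestation, and no AMH was given to their line. The 4 PAMH F3 mice descended from F0 dams that received human recombinant AMH, anti-Müllerian hormone, at 0.12 mg/kg per day over the same days. Their F1 ancestors were the fetuses that the injected dams carried. F1 and F2 females were mated with unrelated males of the PAMH lineage, and no AMH injection is described for them. The route of injection is subcutaneous in the sample labels and intraperitoneal in the methods. The CNTR mice were of the F1 generation, so that the effect of ancestral AMH and that of generation cannot be told apart. Each library came from 600 ng of total RNA, was selected for poly(A) and was read from one end on a stranded protocol. The tissue is bulk ovary, in which fewer cells of a type and less RNA per cell cannot be told apart.

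Counts on genes summed to between 32158174 and 35485021 per library. The markers of granulosa cells, theca and luteal cells and oocytes were all detected, as the tissue label requires, with summed levels of 1606 to 2585 CPM for the granulosa list and 192 to 308 CPM for the oocyte list over the 7 libraries. Markers of oviduct epithelium were present too, at 2573 to 6444 CPM in sum, with overlapping groups. CNTR replicate 2 stood apart in the composition of its reads. Its log2 levels rose by 0.334 per 10% of GC content of the transcripts, whereas this slope lay between -0.136 and 0.0539 in the other 6 libraries. The share of this slope in any difference between the groups was not tested. Log2 differences corrected for GC content and transcript length are given for the 10 genes. They are also given for the named list genes with an unadjusted p under 0.05, other than markers and Fos.

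For the sequences upstream of the members, the RefSeq promoter table for GRCm38.p6, the release that holds the mm10 coordinates, had an entry for 7 of the 10 genes. It had none for Tnfsf12, Relb and Nfkb1. NF-kB dimers bind kappaB sites, and the letters GGGNNTTTCC, in which N stands for any base, were searched on both strands in the 250 bases before each start. They occur in 464 of all 32851 promoters of that length (1.41%). Among the members they were found in 3 genes, Nfkbia, Tnfaip3 and Nfkb2, and in none of the windows of Tnfrsf12a, Tnfrsf1a, Traf2 and Rela. The first sequence below is that of Nfkbia, shown because its whole window lies outside the annotated gene and holds a match, and the next 3 are stretches of 30 bases around the matches of Tnfaip3 and Nfkb2, whose windows lie almost entirely within the annotated genes. Capitals mark the bases that match GGGNNTTTCC or its reverse complement, and all sequences run from 5′ to 3′ on the strand of the gene.
Nfkbia, chr12:55492648-55492897, GRCm38.p6, minus strand: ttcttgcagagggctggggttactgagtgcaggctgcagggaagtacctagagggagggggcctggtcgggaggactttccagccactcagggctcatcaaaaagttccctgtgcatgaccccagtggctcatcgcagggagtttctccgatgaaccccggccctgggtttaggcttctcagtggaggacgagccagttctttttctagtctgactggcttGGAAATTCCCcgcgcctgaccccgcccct
Tnfaip3, chr10:19015411-19015440, GRCm38.p6, minus strand: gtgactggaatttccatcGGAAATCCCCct
Nfkb2, first start, chr19:46304707-46304736, GRCm38.p6, plus strand: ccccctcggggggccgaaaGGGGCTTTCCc
Nfkb2, later start, chr19:46305695-46305724, GRCm38.p6, plus strand: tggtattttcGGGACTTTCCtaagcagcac

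The match began 29 bases before the start in Nfkbia and 12 bases before it in Tnfaip3, on the strand opposite to the gene in both. In Nfkb2 the matches began 11 bases before one annotated start and 225 bases before another, on the strand of the gene. Upstream of Tnfrsf12a, the search for a second motif, the GC box GGGGCGG that Sp1 family factors bind, gave 4 matches on either strand. At least 1 such match is in 21% of all promoters and at least 2 are in 7.44%, and the share with 4 is not given here. Among the other members, a window of Tnfaip3 and one of Nfkb2 held 2 matches each, and those of Nfkbia and Rela 1 each. The 231 bases of the Tnfrsf12a window outside the annotated gene are shown with its 4 matches in capitals, of which the last pair shares 1 base.
Tnfrsf12a, chr17:23677469-23677699, GRCm38.p6, minus strand: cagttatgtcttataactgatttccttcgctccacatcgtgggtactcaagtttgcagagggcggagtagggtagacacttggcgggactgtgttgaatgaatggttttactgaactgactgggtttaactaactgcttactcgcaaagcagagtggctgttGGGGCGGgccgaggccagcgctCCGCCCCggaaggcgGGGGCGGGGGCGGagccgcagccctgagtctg

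A match describes letters only, and a window without a match says nothing about the binding of NF-kB or Sp1 there.

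The ligand gene Tnfsf12 (ENSMUSG00000097328, chr11:69686250-69695849, minus strand of mm10) encodes TWEAK. It was measured at 7.59, 8.79 and 8.45 CPM in CNTR replicates 1 to 3. In PAMH F3 replicates 1 to 4 it was at 7.71, 7.29, 7.56 and 5.64 CPM. The groups overlapped in a single library, as PAMH F3 replicate 1 exceeded CNTR replicate 1, and the lowest library was PAMH F3 replicate 4. The fitted log2 difference was -0.19 with a standard error of 0.15 and a 95% interval from -0.54 to 0.16. It was -0.23 without surrogate variables, which are explained below for Tnfrsf12a, and -0.02 when corrected for GC content as well. Of the exon bases of Tnfsf12, 48.25% are shared on the same strand with Tnfsfm13, the annotated read-through of Tnfsf12 into its neighbour Tnfsf13. Reads that fall on both genes are set aside as ambiguous by the counting mode used, so that reads from the shared bases are not part of the level of Tnfsf12. Between 26 and 40 reads per library were assigned to Tnfsfm13, and between 180 and 293 to Tnfsf12.

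Tnfrsf12a (ENSMUSG00000023905, chr17:23675445-23677468, minus strand) encodes the TWEAK receptor. Its levels were 30.0, 38.9 and 27.8 CPM in CNTR replicates 1 to 3. In PAMH F3 replicates 1 to 4 they were 19.4, 13.4, 13.6 and 14.8 CPM. No PAMH F3 library reached the lowest CNTR library, with PAMH F3 replicate 1 nearest to CNTR and CNTR replicate 2 farthest above PAMH F3. These levels rest on 446 to 1295 reads per library, so that the counting error of the lowest library was 4.74% of its count. The coefficient of variation between mice was 18.1% in CNTR and 18.4% in PAMH F3. The mean of PAMH F3 was 0.475 of that of CNTR. The fitted log2 difference was -1.04 with a standard error of 0.18 and a 95% interval from -1.47 to -0.62. It was -1.07 without surrogate variables, which are covariates that svaseq derives from the count table to absorb variation unrelated to the groups.

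Correction for GC content and transcript length brought the CNTR libraries closer together and left the groups apart. The corrected levels of Tnfrsf12a were 31.7, 28.7 and 28.3 CPM in CNTR, and 22, 13.9, 12.5 and 17.3 CPM in PAMH F3. The SD of CNTR went from 5.83 to 1.86 CPM, and the fitted log2 difference, without surrogate variables, went from -1.07 to -0.85 (95% interval -1.25 to -0.45). When each library was left out in turn, it ran from -1.21 to -0.92. It was below 0 in all 17 alternative fits, where it spanned -1.21 to -0.85.

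**Figure D1:**
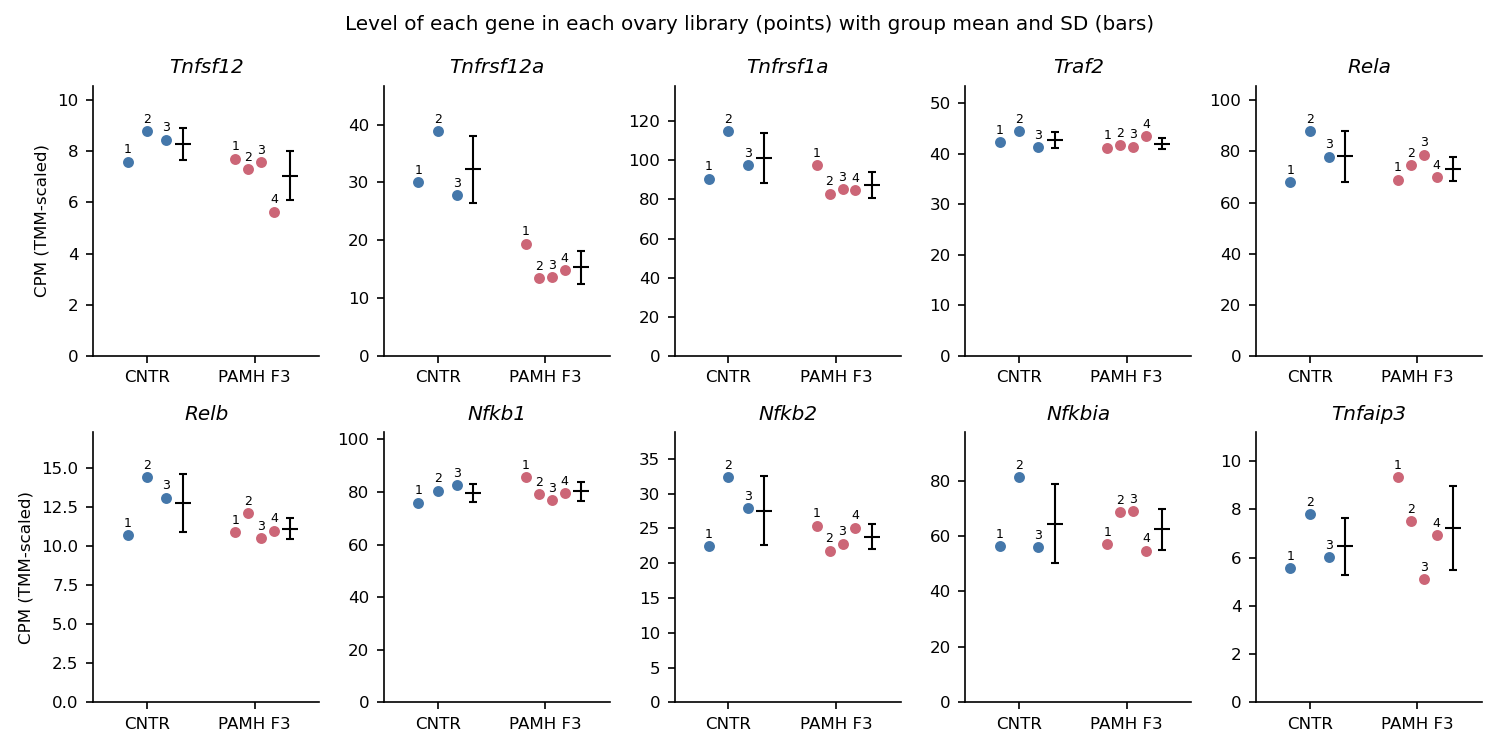
The panels show the TMM-scaled CPM of each of the 10 genes, on linear axes that start at 0, with 1 point per ovary library, the replicate number above it, and a bar for the group mean and SD (3 CNTR libraries in blue, 4 PAMH F3 libraries in red). The 4 PAMH F3 points of Tnfrsf12a, from 13.4 to 19.4 CPM, lie below the lowest CNTR point at 27.8 CPM, and in the other panels the groups overlap.

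Tnfrsf1a (ENSMUSG00000030341, chr6:125349362-125362484, plus strand) encodes TNFR1, the receptor through which TNF itself signals in most cells. Its levels were 90.6, 115 and 97.5 CPM in CNTR replicates 1 to 3. In PAMH F3 replicates 1 to 4 they were 97.5, 82.9, 85.1 and 84.6 CPM. PAMH F3 replicate 1 lay within the CNTR range, level with CNTR replicate 3, and the other PAMH F3 libraries lay below every CNTR library. On the log2 scale, its fitted difference was -0.15 (95% interval -0.37 to 0.07). It was -0.21 without surrogate variables, and -0.08 when corrected for GC content as well. With PAMH F3 replicate 1 left out, the groups no longer overlapped in Tnfrsf1a or Tnfsf12. With CNTR replicate 1 left out they did not overlap in Tnfsf12, while in Tnfrsf1a CNTR replicate 3 exceeded PAMH F3 replicate 1 by 0.015 CPM, and by median-ratio size factors it lay 0.09 CPM lower than that library.

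Traf2 (ENSMUSG00000026942, chr2:25517982-25546940, minus strand) encodes an adaptor and ubiquitin ligase partner that binds the tail of Fn14 and is recruited to TNFR1 through TRADD. It was at 42.3, 44.5 and 41.3 CPM in CNTR and at 41.2, 41.7, 41.4 and 43.5 CPM in PAMH F3. No other member varied as little, with 3.77% between mice in CNTR and 2.52% in PAMH F3, near the counting error of 2.74% in its lowest library. In the fit, its log2 difference was -0.02 (95% interval -0.17 to 0.13). It was -0.03 without surrogate variables, and 0.00 when corrected for GC content as well.

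Of the Rel family, Rela (ENSMUSG00000024927, chr19:5637483-5648130, plus strand) encodes p65, the transactivating subunit of the canonical dimer. It was at 68.1, 88.0 and 78.0 CPM in CNTR and at 68.9, 74.7, 78.8 and 69.9 CPM in PAMH F3. All 4 PAMH F3 libraries lay within the CNTR range. The fitted log2 difference of Rela was -0.01 (95% interval -0.13 to 0.11). It was -0.09 without surrogate variables, and 0.10 when corrected for GC content as well.

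Nfkb1 (ENSMUSG00000028163, chr3:135584655-135691547, minus strand) encodes p105, the precursor of the p50 subunit that pairs with p65. Its levels were 75.9, 80.5 and 82.5 CPM in CNTR and 85.5, 79.1, 76.9 and 79.5 CPM in PAMH F3. The highest library was PAMH F3 replicate 1 and the lowest CNTR replicate 1. On the log2 scale, its fitted difference was 0.02 (95% interval -0.12 to 0.16), so that the interval leaves out a change of 1.0 on the log2 scale, the size seen in Tnfrsf12a, in either direction. The fitted difference of Nfkb1 was 0.01 without surrogate variables, and -0.01 when corrected for GC content as well.

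Nfkb2 (ENSMUSG00000025225, chr19:46304320-46312385, plus strand) encodes p100, from which p52 of the non-canonical route is made. It was at 22.4, 32.3 and 27.9 CPM in CNTR and at 25.4, 21.8, 22.8 and 25.1 CPM in PAMH F3. CNTR replicates 2 and 3 lay above all PAMH F3 libraries and CNTR replicate 1 lay among them. In the fit, its log2 difference was -0.11 (95% interval -0.36 to 0.14). It was -0.21 without surrogate variables, and -0.04 when corrected for GC content as well. On the opposite strand, 18.11% of the exon bases of Nfkb2 are covered by Psd and AC114539.1, and the strand setting of the counting is not given in the sources used here.

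Relb (ENSMUSG00000002983, chr7:19606217-19629438, minus strand) encodes the partner of p52. Its levels were 10.7, 14.4 and 13.1 CPM in CNTR and 10.9, 12.1, 10.5 and 11 CPM in PAMH F3. As in Nfkb2, CNTR replicate 1 lay among the PAMH F3 libraries and the other CNTR libraries above them. The fitted log2 difference of Relb was -0.11 (95% interval -0.36 to 0.15), and 0.02 after correction for GC content. Without CNTR replicate 1 the groups did not overlap in Relb and Nfkb2, with log2 differences of -0.31 and -0.34. With all libraries and no surrogate variables these differences were -0.20 and -0.21.

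Nfkbia (ENSMUSG00000021025, chr12:55489410-55492647, minus strand) encodes IkBalpha, which holds p65 dimers in the cytoplasm and is itself induced by NF-kB. It was at 56.4, 81.1 and 56.0 CPM in CNTR and at 57.1, 68.7, 69.0 and 54.7 CPM in PAMH F3. CNTR replicate 2 stood above all other libraries, and the PAMH F3 libraries formed a lower and a higher pair. On the log2 scale, its fitted difference was 0.07 (95% interval -0.08 to 0.21) with surrogate variables, -0.05 without them and 0.05 after correction for GC content.

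Tnfaip3 (ENSMUSG00000019850, chr10:19000910-19015657, minus strand) encodes A20, a ubiquitin-editing enzyme that limits NF-kB signalling and is also a target of it. It was at 5.57, 7.80 and 6.03 CPM in CNTR and at 9.32, 7.50, 5.11 and 6.93 CPM in PAMH F3. Both the highest and the lowest library were PAMH F3. In the fit, its log2 difference was 0.20 with a 95% interval from -0.39 to 0.78, the widest of the 10 genes. The difference was 0.16 without surrogate variables, and 0.09 when corrected for GC content as well. Its lowest library held 183 reads, a counting error of 7.39%, and its coefficient of variation between mice was 18.2% in CNTR and 24.1% in PAMH F3.

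**Figure D2:**
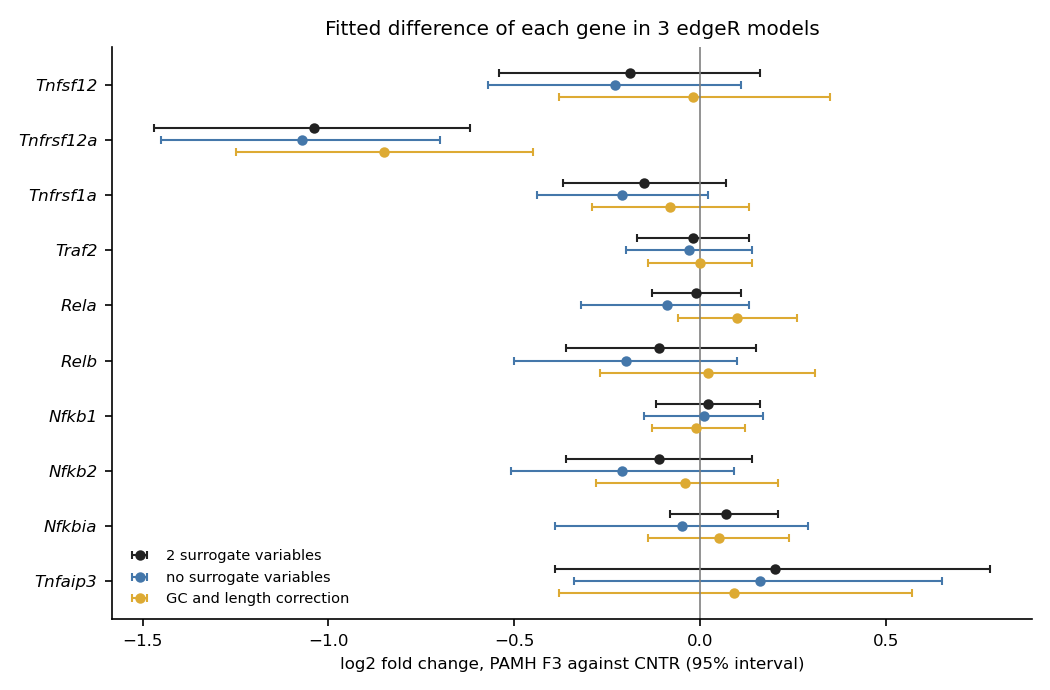
Points give the fitted log2 fold change of PAMH F3 against CNTR for each of the 10 genes and bars its 95% interval, in edgeR models with 2 surrogate variables (black), without them (blue) and without them but corrected for GC content and length (yellow). The points of Tnfrsf12a are at -1.04, -1.07 and -0.85. As this gene was chosen by its level in this contrast, its intervals are a description and not a test. The intervals of the other 9 genes span 0 in all models.

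Over the set, the groups did not overlap in 1 of the 10 genes, Tnfrsf12a, with PAMH F3 below CNTR. Of all 18779 genes tested, 2.4% had PAMH F3 below CNTR without overlap and 1.85% above it, 4.25% in all. At an adjusted p of at most 0.05 in edgeR's quasi-likelihood test, 0 of the 10 were called, as were 0% of all genes, whose smallest adjusted p stood at 0.111. Before adjustment, 1 of the 10, again Tnfrsf12a, had a p under 0.05, as did 7.64% of all genes, 3.89% with PAMH F3 lower and 3.75% with PAMH F3 higher. Tnfrsf12a was also the 1 gene of the 10 under that limit without surrogate variables, where it held for 3.95% of all genes, and with the GC correction, where it held for 4.4%. The Wald test of DESeq2, run with these surrogate variables, called Tnfrsf12a alone among the 10, and 0.58% of all genes. When CNTR replicate 1 was left out, 5 of the 10 lay below CNTR without overlap (4 by median-ratio size factors), as did 8.76% of all genes, and 4 had an unadjusted p under 0.05, as did 8.56% of the genes tested in that fit. When PAMH F3 replicate 1 was left out, the counts were 3, beside 5.36% of all genes, and 2, beside 4.46%. Since Tnfrsf12a entered the set through this contrast, nothing is read from these counts. The log2 difference was below 0 for 7 of the 10, and for 48.3% of all genes. Its median was -0.06 over the 10 and 0.00 over all genes.

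The high value of CNTR replicate 2 recurred through the set. It was the highest of all 7 libraries in 8 of the 10 genes, and it exceeded both other CNTR libraries in 9, the exception being Nfkb1. Of the 10 genes, 7 have transcripts of 55 to 60% GC. In this range, CNTR replicate 2 exceeded the mean of the other CNTR libraries by a median of 0.27 on the log2 scale over 3716 tested genes. The excess of the 7 ran from 0.12 in Tnfsf12 to 0.53 in Nfkbia, and that of Tnfrsf12a was 0.42. Nfkb1 and Traf2, at 50 to 55% GC, had excesses of 0.02 and 0.09, and the median of tested genes in that range was 0.06. Tnfaip3, at 48.3% GC, departed from its range, with an excess of 0.40 against a median of -0.09. After correction for GC content and length, CNTR replicate 2 exceeded both other CNTR libraries in 2 of the 10 genes, Nfkbia and Tnfaip3.

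**Figure D3:**
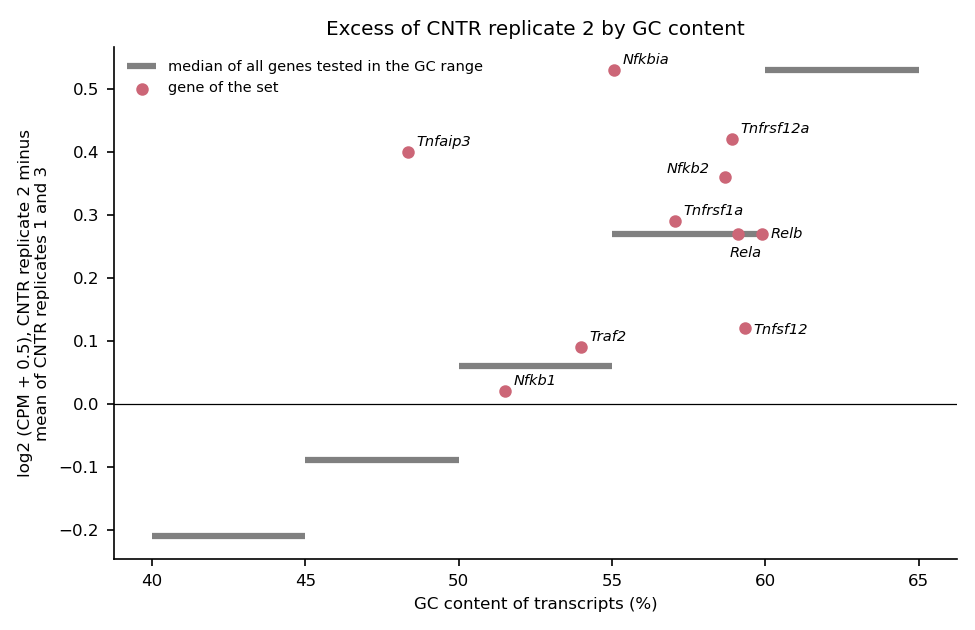
The vertical axis gives the log2 (CPM + 0.5) level of CNTR replicate 2 minus that of the mean CPM of CNTR replicates 1 and 3, and the horizontal axis the GC content of the transcripts in percent. Red points are the 10 genes and grey bars the medians of all tested genes in ranges of 5%, which rise from -0.21 at 40 to 45% to 0.53 at 60 to 65%.

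Members were also compared with each other across libraries. Of the 45 pairs of members, 8 had a Pearson r of at least 0.7 over the 7 libraries in log2 CPM. The number was 3 after correction for GC content, and the median r over the pairs went from 0.45 to 0.05. The 7 points of a pair share their libraries, and with them depth and base composition, so that these values are descriptions.

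Levels can be compared between genes only per length, and are given here as the mean CPM per kilobase of merged exons over the 7 libraries. The inhibitor gene Nfkbia came first at 39.3 ± 6.17 (SD, n = 7), followed by Tnfrsf1a at 36.0 ± 4.38. They did not differ beyond their spread, with Nfkbia above Tnfrsf1a in 5 of 7 libraries. Rela came next at 24.5 ± 2.32, below Tnfrsf1a in all 7 libraries.

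Tnfrsf12a was at 11.7 ± 5.10 CPM per kilobase over both groups, with means of 16.7 in CNTR and 7.93 in PAMH F3. It exceeded Traf2 (8.29 ± 0.247) in 4 of 7 libraries, and the order of their means was opposite in the groups, with Traf2 at 8.38 in CNTR and 8.23 in PAMH F3. Nfkb1 (6.63 ± 0.271), Nfkb2 (5.54 ± 0.816) and the ligand gene Tnfsf12 (5.00 ± 0.664) followed, and Nfkb2 exceeded Tnfsf12 in 4 of 7 libraries, which is within their spread. The level of Tnfsf12 was divided by its full exon length, although reads from the 48.25% shared with Tnfsfm13 are not counted. It is therefore too low per countable base, and its rank, also against Nfkb2, is not settled here. Relb at 3.04 ± 0.379 and Tnfaip3 at 0.954 ± 0.202 were lowest. With the median transcript length in place of merged exons, 5 of the 10 genes kept their rank, Tnfrsf12a among them, and Tnfrsf1a came first.

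**Figure D4:**
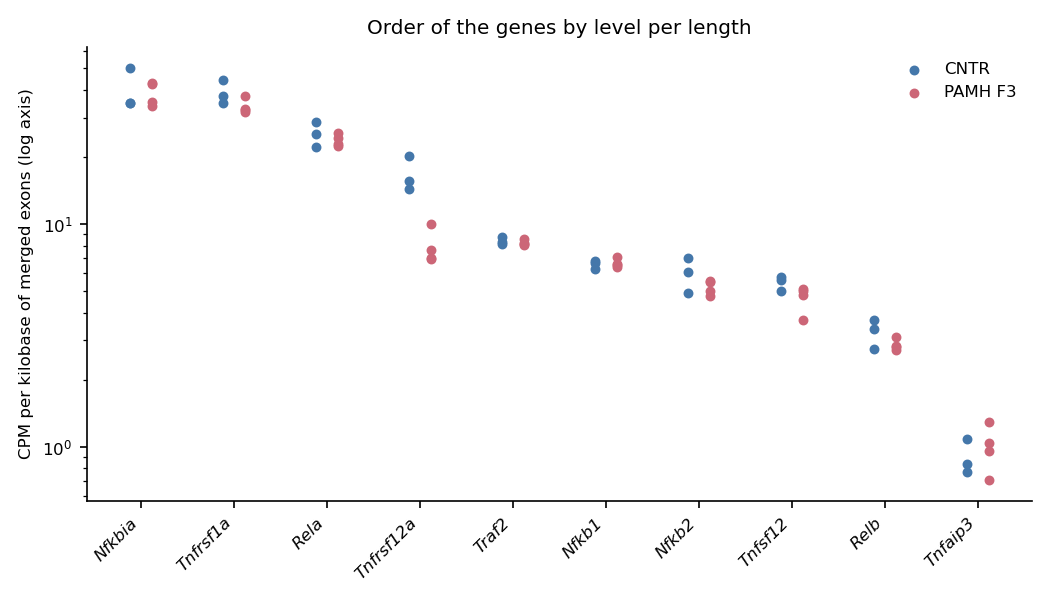
Each point is a library's CPM per kilobase of merged exons, on a log axis, for the 10 genes ordered by their mean, with CNTR in blue and PAMH F3 in red. The means fall from 39.3 in Nfkbia to 0.954 in Tnfaip3, and Tnfrsf12a is the gene whose red and blue points separate.

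The genes whose log2 CPM followed that of Tnfrsf12a most closely over the 7 libraries, among 12697 genes with a mean of at least 5 CPM, were Cdkn1a (Pearson r 0.987), Galnt18 (0.984), Zfp36 (0.982), Afap1l1 (0.979) and Homer3 (0.978). Cdkn1a encodes the cyclin-dependent kinase inhibitor p21, and Zfp36 encodes tristetraprolin, which destabilizes mRNAs of cytokines. Cdkn1a averaged 38.1 ± 5.81 CPM in PAMH F3 (SD, n = 4), where CNTR averaged 67.6 ± 4.83 CPM (SD, n = 3). PAMH F3 lay below CNTR without overlap in all 5 genes, a property that the choice by likeness to Tnfrsf12a brings with it.

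The genes closest to Nfkbia were Sox13 (0.989), Sema4a (0.988), Slc9a3r1 (0.987), Ubald2 (0.983) and Gfod2 (0.982). Their groups overlapped in all 5. Their transcripts have a GC content of 55 to 60.5%, and the median of all tested genes is 50.2%. The part of the GC slope of CNTR replicate 2 in these likenesses was not tested.

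Beyond the members, 99 genes of the pathway in 5 lists were examined, and 87 of them could be tested. At the adjusted threshold of edgeR's test, 0 of the 87 were called. An unadjusted p under 0.05 was found for 5 of them, 3 higher and 2 lower in PAMH F3, which is 5.75% of the list genes, beside 7.64% of all genes (3.75% higher and 3.89% lower). The lists were drawn up with earlier results of these libraries known.

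Among other receptors of the TNF receptor superfamily, 1 of 23 tested had an unadjusted p under 0.05, and the median log2 fold change was -0.03. That receptor was Edar, which binds ectodysplasin in the development of hair and teeth. It was low in every library, at 2.41, 0.870 and 0.526 CPM in CNTR and 0.822, 0.482, 0.363 and 0.282 CPM in PAMH F3, with 9 to 80 reads. CNTR replicate 1 alone lay above all others, and the log2 fold change of -1.49 had a standard error of 0.33 and an edgeR adjusted p of 0.511. Without surrogate variables it was -1.37. It was -0.51 when the fit left out CNTR replicate 1, and -1.36 after correction for GC content.

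Of the other ligands of the TNF superfamily, 10 of 17 had enough reads to be tested and 0 had an unadjusted p under 0.05. Those with the highest levels were Tnfsf10, which encodes TRAIL, with a CNTR mean of 16.1 ± 3.06 CPM (SD, n = 3) and a PAMH F3 mean of 16.9 ± 0.592 CPM (SD, n = 4), and Eda, the ectodysplasin gene, with means of 6.79 ± 0.754 and 7.30 ± 0.200 CPM. The log2 fold changes were 0.08 for Tnfsf10 (95% interval -0.15 to 0.32) and 0.16 for Eda (95% interval -0.12 to 0.44).

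The list of TRAFs, the IkB kinase complex and signalling adaptors was measured in full, with 20 of 20 genes tested and 0 at an unadjusted p under 0.05. Their log2 fold changes lay between -0.27 and 0.10, with a median of 0.04. Tab2, which links ubiquitin chains to the kinase TAK1, had a CNTR mean of 137 ± 10.1 CPM (SD, n = 3) and a PAMH F3 mean of 149.8 ± 8.41 CPM (SD, n = 4). Birc2, the gene of the ubiquitin ligase cIAP1 that Traf2 carries to receptors, had means of 122 ± 23.4 and 127 ± 10.8 CPM.

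Of the remaining Rel subunit gene and the IkB-related and deubiquitinating inhibitors, 0 of 10 had an unadjusted p under 0.05, and the log2 fold changes lay between -0.31 and 0.07. Tnip1, a partner of A20, had a CNTR mean of 82.0 ± 13.3 CPM (SD, n = 3) and a PAMH F3 mean of 76.2 ± 7.36 CPM (SD, n = 4). Those of Cyld, a deubiquitinase, were 64.2 ± 4.45 and 65.5 ± 2.79 CPM.

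Among textbook targets of NF-kB, 24 of 26 were tested, and 3 were higher and 1 lower in PAMH F3 at an unadjusted p under 0.05, with a median log2 fold change of 0.10. Of the 24, 18 had a log2 fold change above 0 and 6 below, and 48.3% of all genes lay below 0. Ptgs2, which encodes the prostaglandin synthase COX-2 needed for ovulation, was at 5.21, 8.88 and 6.16 CPM in CNTR and 11.3, 10.2, 13.7 and 8.47 CPM in PAMH F3. The groups overlapped because CNTR replicate 2 exceeded PAMH F3 replicate 4. The log2 fold change of Ptgs2 was 0.86 with a standard error of 0.15 and an edgeR adjusted p of 0.365, whereas the Wald test of DESeq2, run with these surrogate variables, gave an adjusted p of 0.00158. Without them the adjusted p of DESeq2 was 0.91. The edgeR log2 fold change was 0.69 without surrogate variables. Beside that 0.69, it was 0.54 when CNTR replicate 1 was left out and 0.57 when PAMH F3 replicate 3 was, and 0.61 after correction for GC content.

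Cxcl1, a neutrophil-attracting chemokine gene, was at 1.33, 6 and 4.24 CPM in CNTR and 4.68, 4.61, 4.63 and 4.36 CPM in PAMH F3. The PAMH F3 libraries were close together and lay between the CNTR libraries. Its log2 fold change was 0.91 (edgeR adjusted p of 0.511), and 0.24 without surrogate variables. From that 0.24, it went to 0.18 after correction for GC content and to -0.16 when CNTR replicate 1 was left out. Ccnd1, which encodes cyclin D1, had a CNTR mean of 75.2 ± 15.9 CPM (SD, n = 3) and a PAMH F3 mean of 92.1 ± 24.0 CPM (SD, n = 4), with a log2 fold change of 0.29, an edgeR adjusted p of 0.567 and a value of 0.34 after correction for GC content. PAMH F3 replicate 3 was highest at 126 CPM and CNTR replicate 3 lowest at 56.9 CPM. The log2 fold change of Ccnd1 was 0.10 when the former was left out and 0.13 when the latter was.

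Gadd45b, a stress-response gene, was the target that went the other way. It was at 9.31, 17.4 and 12.0 CPM in CNTR and 7.65, 8.07, 8.87 and 8.09 CPM in PAMH F3, so that the groups did not overlap. The fitted log2 fold change was -0.45 with a standard error of 0.11 and an edgeR adjusted p of 0.511. It was -0.66 without surrogate variables and -0.49 after correction for GC content, and when CNTR libraries were left out in turn it ran from -0.84 (replicate 1) to -0.38 (replicate 2).

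**Figure D5:**
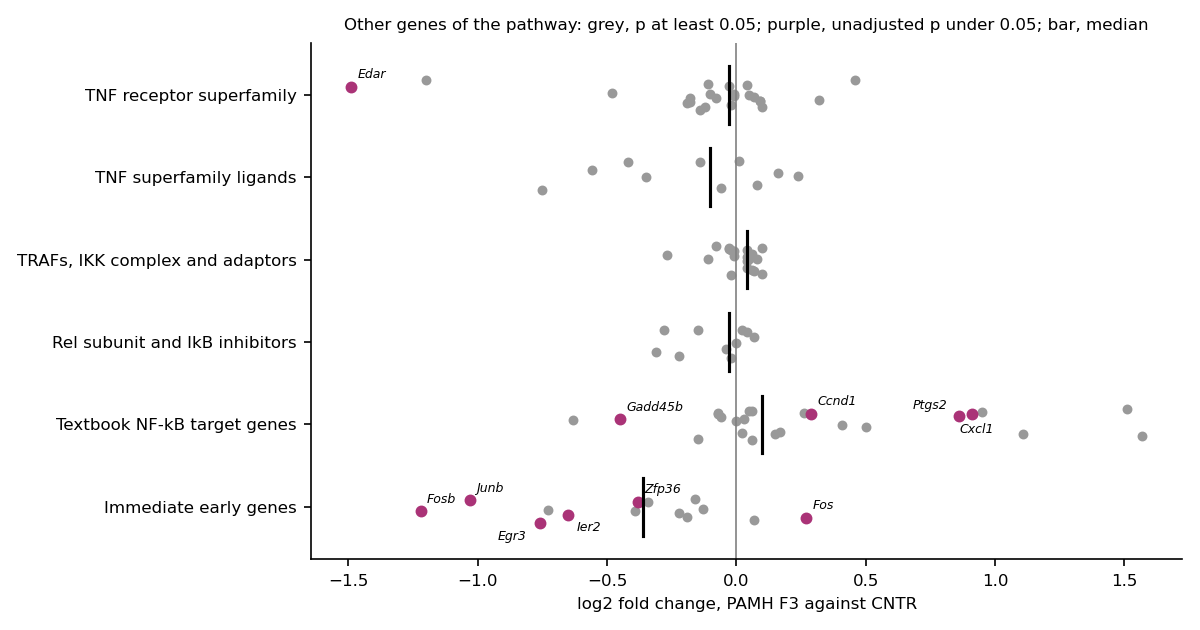
Each point is a tested gene of a list, placed at its log2 fold change of PAMH F3 against CNTR in the edgeR fit, with vertical scatter for legibility. Purple points have an unadjusted p under 0.05, grey points do not, and black bars are list medians, which run from -0.10 to 0.10 in the 5 pathway lists and lie at -0.36 for the immediate early genes.

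Immediate early genes, which are switched on within minutes of a stimulus or of tissue handling, were examined because the TWEAK receptor gene is itself known to be inducible. This list too was drawn up with earlier results of these libraries known. Of 14 tested, 12 had a log2 fold change below 0, as had 48.3% of all genes, with a median of -0.36 beside 0.00 over all genes. At an unadjusted p under 0.05, 5 were lower and 1 higher in PAMH F3, beside 3.89% lower and 3.75% higher of all genes. Of the 14, 0 passed the adjusted threshold of edgeR's test. Zfp36, which is also among the genes closest to Tnfrsf12a, was at 33.9, 38.2 and 32.5 CPM in CNTR and 27.8, 26.6, 25.3 and 25.8 CPM in PAMH F3. This is a log2 fold change of -0.38 with a standard error of 0.08 and an edgeR adjusted p of 0.484, and the groups did not overlap. The log2 fold change of Zfp36 was -0.40 without surrogate variables, and -0.34 when corrected for GC content as well.

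Ier2 was at 9.43, 25.6 and 11.7 CPM in CNTR and 6.63, 7.59, 9.48 and 6.55 CPM in PAMH F3. The fitted log2 fold change of Ier2 was -0.65 (edgeR adjusted p of 0.387), beside -1.04 without surrogate variables and -0.66 after correction for GC content. Beside the -1.04, it ran from -1.30 without CNTR replicate 1, and -1.21 without CNTR replicate 3, to -0.48 without CNTR replicate 2. Fosb and Junb, which encode subunits of AP-1, did not overlap between the groups, with log2 fold changes of -1.22 (edgeR adjusted p of 0.511) and -1.03 (edgeR adjusted p of 0.54). The level of Fosb rested on 34 to 115 reads per library. Fos, which also encodes an AP-1 subunit, was the 1 gene higher at an unadjusted p under 0.05 in edgeR's test. Its log2 fold change was 0.27, with means of 15.9 CPM in CNTR and 16.4 CPM in PAMH F3. The CNTR values of Junb were 2.95, 15.8 and 4.21 CPM, so that CNTR replicate 2 stood far above its group. The log2 fold change of Junb was -1.80 without surrogate variables and -1.27 after correction for GC content. Beside the -1.80, it ran from -2.19 without CNTR replicate 1, and -2.09 without CNTR replicate 3, to -0.71 without CNTR replicate 2. For Fosb it was -1.10 without surrogate variables, and -1.02 with the GC correction. Summed over the list, CNTR averaged 346 ± 95.3 CPM (SD, n = 3) and PAMH F3 268 ± 23.0 CPM (SD, n = 4), with overlapping groups (exact permutation test, two-sided p = 0.0857, adjusted over 10 lists 0.57). The difference of -77.6 CPM between the group means was -24.5 CPM when CNTR replicate 2 was left out and -117 CPM when CNTR replicate 1 was. The part of these genes in the difference of Tnfrsf12a was not tested.

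Markers of the cell types that could carry Tnfrsf12a were summed in the same way, and no marker of any list was at 0. The smallest two-sided p that 3 libraries against 4 allow is 0.0286. Stromal fibroblast markers, 4 of 4 tested, summed to 1485 to 1529 CPM in CNTR and 1126 to 1460 CPM in PAMH F3, and PAMH F3 lay below CNTR without overlap (exact permutation test, two-sided p = 0.114, adjusted 0.57). Singly, 0 of the 4 lay below CNTR without overlap, beside 2.4% of all genes. Their log2 fold changes, 1 above 0 and 3 below, lay between -0.29 and 0.10. The ratio of the group means was 0.877 for these markers and 0.475 for Tnfrsf12a. Endothelial markers, 5 of 5 tested, ran from 226 to 262 CPM in CNTR and from 183 to 272 CPM in PAMH F3 (exact permutation test, two-sided p = 0.343, adjusted 0.816). All 5 had a log2 fold change below 0, as had 48.3% of all genes, with a median of -0.21. Of these 5, Pecam1 alone, at -0.44, had an unadjusted p under 0.05 in edgeR's test. Leukocyte markers, 11 of 11 tested, ran from 398 to 418 CPM in CNTR and from 279 to 513 CPM in PAMH F3 (exact permutation test, two-sided p = 0.571, adjusted 0.816). Smooth muscle markers, 4 of 4 tested, ran from 948 to 1459 CPM in CNTR and from 785 to 1247 CPM in PAMH F3. For smooth muscle, granulosa, theca and luteal, oocyte, oviduct and adipocyte markers, the groups overlapped, with adjusted p values of 0.816 to 1.0 (exact permutation test). Adipocyte markers ran from 201 to 654 CPM in CNTR and from 85.2 to 459 CPM in PAMH F3, a ratio of group means of 0.726. All 3 had a log2 fold change below 0, as had 48.3% of all genes, with a median of -0.72. A sum follows its most abundant marker, such as Inha in granulosa (CNTR mean 1700 of 2063 CPM) and Ovgp1 in oviduct (3900 of 4132 CPM). Lyz2 made up 289 of 410 CPM in the leukocyte list, and Dcn 804 of 1508 CPM in the stromal fibroblast list. In the granulosa list, 3 of 5 log2 fold changes were above 0 and 2 below. Those 2, Foxl2 (-0.25) and Amh (-0.34), had an unadjusted p under 0.05 in edgeR's test, as did 3.89% of all genes with PAMH F3 lower. The part of these cell types in the level of Tnfrsf12a was not tested.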

How the data were processed

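Ovarian poly(A) RNA of 7 mice was sequenced by the authors, with 1 library per mouse, and reads were demultiplexed with bcl2fastq 2.17.1.14, mapped to mm10 with STAR 2.5.3a and counted with HTSeq-count 0.6.1p1 (union mode, unique alignments). The Ensembl release and the strand setting are not given in the sources used here. The authors deposited raw read counts per gene, without normalization, with summary lines that were left out here (no feature 5.82 to 7.37%, ambiguous 0.720 to 0.848% and not unique 37.7 to 40.7% of each library). Replicates of a group differed by a chi-square of 14.9 to 49.3 per degree of freedom, so that none was a repeat of another.

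Of the identifiers, 55394 were matched to GENCODE M21. Counts were scaled by TMM over all gene rows to CPM. The 18779 genes kept by filterByExpr (minimum count 10) were tested in R 4.3.3 with the quasi-likelihood F test of edgeR 4.0.16 with 2 surrogate variables from svaseq (sva 3.50.0, number from num.sv with 20 permutations, random seed 1, at most 3), which left 3 residual degrees of freedom, and p values were adjusted by Benjamini-Hochberg with a threshold of 0.05. Standard errors are the log2 fold change over the root of F. Summed levels of lists were compared by an exact permutation test over 35 divisions of the libraries, two-sided, adjusted over the lists. The fits were tested on simulated data with 200 changed genes. Each p value sets a difference against the spread between these mice. In fits with surrogate variables, this is the spread that remains after them.

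The 10 genes and all gene lists were chosen with earlier results of these data known. The genes named are these 10, in each list other than markers those with an unadjusted p under 0.05 (up to 4 of smallest p, otherwise the 2 of highest CPM), and the 5 genes closest to Tnfrsf12a and to Nfkbia. Of the markers, those with an unadjusted p under 0.05 and some that make up most of a sum are also named. Fos is named as the 1 immediate early gene that was higher at that limit. The alternatives used 0, 1 or 3 surrogate variables, DESeq2 1.42.0, median-ratio size factors, other filters, a correction for GC content and length, a replicate block, or 1 library fewer. The GC correction, the replicate block and the fits with 1 library fewer held no surrogate variables. The overlap of groups under other settings was examined after seeing the data. Promoters came from RefSeq. No proteins were used here.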

Additional observations from a re-analysis of the deposited data

Results flagged for a closer look

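PAMH F3 replicate 1 stood apart from the rest of its group in 3 values, each marked because the gap to the nearest of the 4 libraries, as a share of their range, exceeded the critical value of Dixon's test. In Tnfrsf1a it was at 97.5 CPM and the others lay between 82.9 and 85.1 CPM, a gap of 0.849 of the range. In Tnfrsf9, the gene of the costimulatory receptor 4-1BB, it was at 28.3 CPM and the others lay between 6.55 and 8.88 CPM, a gap of 0.893. The summed level of the immediate early genes was 303 CPM in this library and between 256 and 259 CPM in the others, a gap of 0.933. Of 45 such groups examined, 3 passed, and chance passes about 1 in 20. The same library held the highest level of Tnfrsf12a in PAMH F3, at 19.4 CPM. Without it the log2 difference of Tnfrsf12a was -1.21, beside -1.07 with all libraries and no surrogate variables. The cause of these values was not tested.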

How the results depend on the processing

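The 3 libraries against 4 and the 3 residual degrees of freedom limit every test. In edgeR's fit 0 genes were called, and the count was 101 in DESeq2 with the same surrogate variables, 6 in DESeq2 without them, 8 with no filter on low counts, and 0 to 2 when 1 library was left out (2 without PAMH F3 replicate 1). Of the pathway list genes, DESeq2 with the same surrogate variables called 1, Ptgs2, and leaving out 1 library gave 0 to 1, the call being Tnfrsf9 (log2 fold change -1.85) without PAMH F3 replicate 1. Their count at an unadjusted p under 0.05 was 4 to 9 when 1 library was left out, with 9 without CNTR replicate 1. Outside the pathway lists, DESeq2 with the same surrogate variables called Ier2, at -0.65, which DESeq2 without them did not (adjusted p 0.575). The cause was not tested.

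Of the 10 genes, those whose groups did not overlap numbered 1 to 5 when 1 library was left out. Without CNTR replicate 1 they were Tnfsf12, Tnfrsf12a, Tnfrsf1a, Relb and Nfkb2 (8.76% of all genes lay lower without overlap), and 4 by median-ratio size factors, where Tnfrsf1a overlapped. Without PAMH F3 replicate 1 they were 3, Tnfsf12, Tnfrsf12a and Tnfrsf1a (5.36% of all genes). Those with an unadjusted p under 0.05 numbered 1 to 4, with 4 when CNTR replicate 1 was left out (8.56% of all genes) and 2 when PAMH F3 replicate 1 was (4.46%). Without CNTR replicate 1, Rela was at -0.18, Relb at -0.31 and Nfkb2 at -0.34. With all libraries and no surrogate variables they were at -0.09, -0.20 and -0.21. With the GC correction Tnfsf12 was at -0.02, and without it at -0.23, both without surrogate variables. By median transcript length 5 of the 10 kept their rank.

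The log2 fold change of Cxcl1, a target, was 0.91 in the main fit and 0.24 without surrogate variables. From 0.24 its sign turned, to -0.16 without CNTR replicate 1, with 0.72 at the other end when 1 library was left out. Other changes of sign were in genes with a log2 fold change near 0, from -0.11 to 0.08, in the main fit. Among the members, Nfkbia was at 0.07 in the main fit and ran from -0.14 to 0.15 over 17 alternative fits. Rela ran from -0.18 to 0.1, Relb from -0.31 to 0.02 and Nfkb1 from -0.02 to 0.04. Of the 17 fits, 9 kept the sign for Nfkbia, 15 for Rela, 16 for Relb and 14 for Nfkb1. When 1 library was left out, Tnfsf10 ran from -0.08 (without CNTR replicate 3) to 0.18 and Birc2 from -0.07 (without CNTR replicate 2) to 0.21. Tnip1 was at 0.06 with the GC correction. Cyld was at 0.03 with 0 surrogate variables and in DESeq2 without them, 0.02 with 1, 0.00 with 3, and between -0.03 and 0.06 when 1 library was left out. The difference of summed CPM, PAMH F3 minus CNTR, changed sign when 1 library was left out for granulosa (-252 to 238), oocyte (-16.2 to 23.6), oviduct (-364 to 926) and adipocyte markers (-183 to 43.5).

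Replicate numbers are shared between the groups, but same-numbered libraries correlated at 0.120, 0.125 and -0.326 in their deviations from the group means, so that they were not taken as pairs. With a replicate block over replicates 1 to 3, 0 genes were called, Tnfrsf12a was at -1.06 and Cyld at 0.02.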

Other observations

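Tnfrsf9, one of the receptors of the TNF receptor superfamily list, was picked out after its values were seen. It encodes 4-1BB, a costimulatory receptor of lymphocytes. It was at 25, 31.8 and 24.4 CPM in CNTR replicates 1 to 3, and at 28.3, 8.88, 7.09 and 6.55 CPM in PAMH F3 replicates 1 to 4. PAMH F3 replicate 1 lay within the CNTR range and the other PAMH F3 libraries far below it. With all libraries the log2 fold change was -1.20 with a standard error of 0.57 (edgeR adjusted p of 0.687), and over 17 alternative fits it ran from -1.85 to -0.87.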
